A study of Mus musculus with 11 samples.

Results

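Beta-catenin, the 4 TCF/LEF factors and 5 genes that Wnt signalling is known to activate were examined in the hippocampus of young adult mice whose mothers had eaten either a control diet or a diet rich in folic acid before conception. The 10 genes were taken as a list of nuclear effectors and target genes, and each was found in the count tables by its Ensembl identifier and its GENCODE symbol on GRCm38. They are 10 of the 38293 genes in the tables, and all 10 were among the 20589 genes tested. Hippocampal RNA of 11 F1 offspring was sequenced at 14 weeks of age. The CD group held 6 mice (3 males and 3 females) whose dams were fed 2.3 mg folic acid per kg diet. The FD group held 5 mice (2 males and 3 females) whose dams were fed 40 mg folic acid per kg diet. The supplemented diet was given to the dams only up to mating, so the offspring of both groups were carried and raised on the control diet. All mice were wildtype crosses of 129S6/SvEv females and C57BL/6J males, and nothing was deleted or transgenic in either group. The whole hippocampus was frozen and extracted, so each value is an average over every cell type in the tissue. The comparison asked whether maternal folic acid before conception left a difference in this pathway's nuclear readout in the offspring.

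In the canonical Wnt pathway, beta-catenin is degraded in the cytoplasm until a Wnt ligand at the cell surface stops its destruction complex. It then accumulates, enters the nucleus and binds TCF/LEF proteins, which sit on DNA and switch from repressing to activating target genes. Several targets, such as Axin2 and Nkd1, feed back and dampen the signal, so that their transcripts are widely read as a gauge of pathway activity. In the adult hippocampus the pathway is best known for its part in the birth of new granule neurons in the dentate gyrus and in synaptic plasticity.

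None of the 10 genes passed the test between FD and CD mice. Myc, a growth-promoting transcription factor, averaged lower in FD mice and Ccnd1, the cyclin that carries cells through G1, averaged higher, each at an unadjusted p under 0.05. The estimate for beta-catenin itself lay near 0 with a narrow interval. The feedback targets Axin2 and Nkd1 and the 4 TCF/LEF factors had intervals that spanned 0.

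The sequences just upstream of the start sites are shown because TCF/LEF proteins act by binding short DNA words, and the printed windows show which of these genes hold such a word close to a start. The consensus word CTTTGAA was searched on both strands, together with its variants ending in T (CTTTGAT), in TA (CTTTGTA) and in TT (CTTTGTT), in the 250 bases before each RefSeq start site on GRCm38.p6. RefSeq promoter entries were matched for 8 of the 10 genes, giving 14 windows, and none was matched for Myc and Ccnd1. A word was found in 3 of the 14 windows, and 14.8% of all 32851 windows of this length hold at least 1. The 3 windows with a match and, for comparison, the single Axin2 window without one are printed 5′ to 3′ on the gene's strand, with the matched letters in capitals.
Sp5, chr2:70474673-70474922, plus strand: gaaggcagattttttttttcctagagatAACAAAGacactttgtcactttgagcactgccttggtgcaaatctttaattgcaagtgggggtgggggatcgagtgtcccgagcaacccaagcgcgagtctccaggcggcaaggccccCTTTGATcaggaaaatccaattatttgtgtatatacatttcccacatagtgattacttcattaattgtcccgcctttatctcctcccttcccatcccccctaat
Lef1, a downstream start, chr3:131156044-131156293, plus strand: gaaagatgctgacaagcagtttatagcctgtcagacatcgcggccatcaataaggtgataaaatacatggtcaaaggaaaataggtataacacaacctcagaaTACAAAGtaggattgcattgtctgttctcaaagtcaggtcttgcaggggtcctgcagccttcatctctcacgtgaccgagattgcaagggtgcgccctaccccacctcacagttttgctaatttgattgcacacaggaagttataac
Tcf7l2, a downstream start, chr19:55895071-55895320, plus strand: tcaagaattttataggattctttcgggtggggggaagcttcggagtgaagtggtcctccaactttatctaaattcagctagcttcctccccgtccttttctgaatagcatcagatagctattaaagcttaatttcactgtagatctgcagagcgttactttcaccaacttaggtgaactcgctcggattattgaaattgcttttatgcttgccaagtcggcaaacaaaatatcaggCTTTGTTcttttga
Axin2, chr11:108920099-108920348, plus strand: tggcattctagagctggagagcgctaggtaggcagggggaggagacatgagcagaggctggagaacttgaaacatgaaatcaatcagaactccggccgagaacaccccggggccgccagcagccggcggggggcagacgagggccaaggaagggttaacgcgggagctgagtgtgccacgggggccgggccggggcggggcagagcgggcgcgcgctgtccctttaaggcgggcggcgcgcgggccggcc
The Sp5 window was the only one of the 14 with 2 words, AACAAAG beginning 222 bases and CTTTGAT 104 bases before the start, and 1.43% of all windows hold 2 or more. In the Lef1 window TACAAAG began 147 bases before the start. In the Tcf7l2 window CTTTGTT began 14 bases before the start. The matched words do not overlap each other. A match is a description of the letters, and the lack of one in the Axin2 window says only that these letters are not there.

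The libraries held between 11737554 and 44447006 counts on genes, with medians of 23493609 in CD and 21148672 in FD mice (exact permutation test, two-sided, p = 0.587). The TMM factors that correct for library composition ran from 0.981 to 1.02. Levels below are in CPM, counts scaled to an equal library total with this correction, and 3 counts correspond to 0.0677 to 0.256 CPM depending on the library. Xist, which is made from the inactive X chromosome, had 6 to 27 counts in the mice labelled male and 7426 to 30462 in those labelled female. Markers of hippocampal neurons summed to 1188 to 1334 CPM in CD and 1257 to 1419 CPM in FD mice. Tests between the diets measure the spread between these 11 mice, and the litter of each mouse is not given in the sources used here. The diet was given to the dams, and the tests treat each mouse as independent. If some mice were littermates, the intervals could be too narrow and the p-values too small.

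Divided by exon length, the 10 genes spanned a wide range of levels, which allows them to be ordered. Ctnnb1, the gene of beta-catenin, stood far above the rest at 115.5 ± 5.14 CPM per kb of exon (SD, n = 11). Ccnd1 followed at 8.12 ± 0.769 and Axin2, the scaffold that limits beta-catenin, at 4.09 ± 0.468. Nkd1, which restrains Wnt signalling at Dishevelled, had 2.24 ± 0.401 and Myc 1.91 ± 0.32. Among the DNA-binding partners, Tcf7 had 1.12 ± 0.199, Tcf7l1 0.777 ± 0.125, Lef1 0.436 ± 0.0764 and Tcf7l2 0.414 ± 0.0857 CPM per kb. Sp5, a transcription factor induced by Wnt in embryos, came last at 0.0412 ± 0.0375. The ranges over the 11 mice did not overlap between Ctnnb1 and Ccnd1, Ccnd1 and Axin2, Axin2 and Nkd1, or Tcf7l2 and Sp5. The neighbours Nkd1 and Myc, Myc and Tcf7, Tcf7 and Tcf7l1, Tcf7l1 and Lef1, and Lef1 and Tcf7l2 overlapped in their ranges. Within single mice Tcf7 was the highest of the 4 TCF/LEF genes per kb in 11 of 11 libraries, and the lowest was Lef1 in some mice and Tcf7l2 in the others. Without division by exon length the order differed, and Tcf7 had the lowest mean, 2.945 CPM. Tcf7l1 had 3.05, Tcf7l2 3.632 and Lef1 3.828 CPM. The order per kb thus rests on exon lengths over all transcripts, 2.625 kb for Tcf7, 8.788 kb for Lef1 and 8.775 kb for Tcf7l2. The level of Ctnnb1 per kb was 33.4 to 47.7 times the summed level of the 4 TCF/LEF genes.

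**Figure D1:**
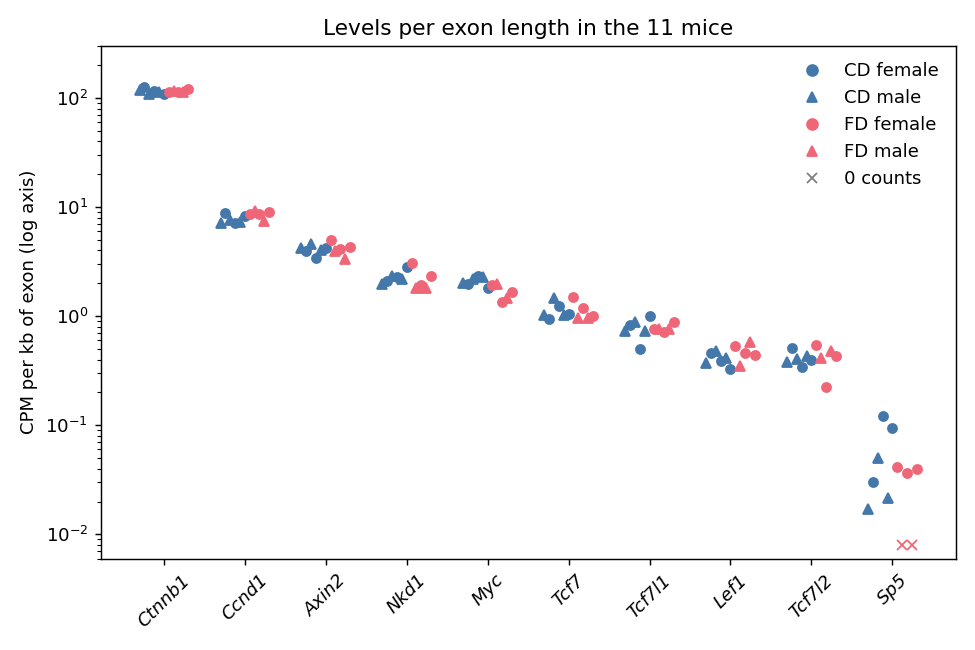
CPM per kb of exon on a log axis for the 10 genes, with 1 point per mouse, circles for females and triangles for males, and crosses at the bottom for mice without a count. Ctnnb1 stands at 108 to 126.3 CPM per kb in every mouse, 14.2 times the mean of the next gene, and Sp5 lies below the other genes in all 11 mice.

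The main comparison was made by edgeR's quasi-likelihood test over all 20589 genes with Benjamini-Hochberg adjustment at 0.1. Of all genes, 0.068% passed, 14 in number, and 0 of the 10 genes did. With no adjustment, 2 of the 10 had p under 0.05, 1 higher and 1 lower in FD mice, against 2.59% of all genes (1.93% higher and 0.661% lower). DESeq2 gave the same counts for the list, 0 after adjustment and 2 without, where 0.0875% and 1.77% of all genes were called. The log2 fold change of FD over CD was above 0 for 6 of the 10, and for 48.2% of all genes. Its median over the list was 0.0153, and over all genes -0.0040. The CD and FD mice overlapped in CPM for each of the 10, and 0.505% of all genes had groups that did not overlap. Fewer cells of a type and less RNA per cell cannot be told apart in these tissue samples.

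Ctnnb1 (ENSMUSG00000006932, chr9:120929216-120960507, plus strand, GRCm38) encodes the signal carrier itself. Its level in CD mice ran from 560.5 to 655.8 CPM with a median of 598. In the FD females it was 586.8, 590.9 and 626.6 CPM, and in the FD males 604.3 and 588.9 CPM. All 5 FD mice lay within the CD range, and the gene had the lowest coefficient of variation of the list, 4.45% over the 11 mice. The means were 600.2 ± 34.7 CPM (SD, n = 6) in CD and 599.5 ± 16.6 CPM (SD, n = 5) in FD mice. The log2 fold change was -0.0018 with an SE of 0.049 and a 95% interval from -0.10 to 0.10 (edgeR, adjusted p = 1). On a linear scale that interval reaches from -7.0% to 7.26%. Ulk4 on the opposite strand and Mir7090 cover 15.1% of its exon bases, and whether counting used strand is not given in the sources used here.

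**Figure D2:**
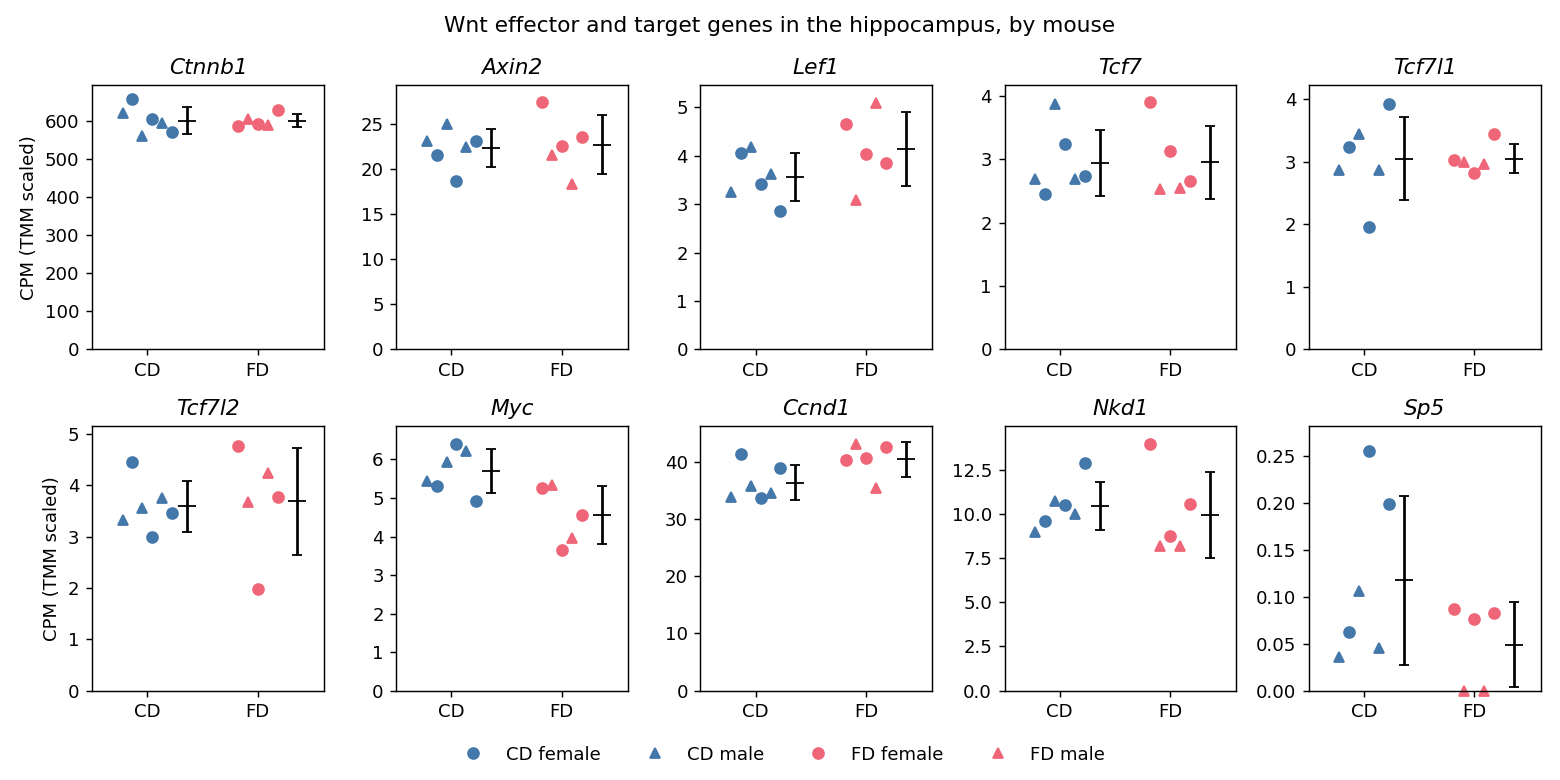
CPM of each of the 10 genes in the 6 CD and 5 FD mice, 1 point per mouse with circles for females and triangles for males, and the mean ± SD of each diet group beside the points. The 5 FD values of Myc lie below and those of Ccnd1 above the CD median, and in every panel the 2 groups overlap.

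The 4 TCF/LEF factors bind the same DNA words. Lef1 acts mainly as an activator, Tcf7l1 mainly as a repressor, and Tcf7 and Tcf7l2 can do both through long and short isoforms, which these counts per gene do not separate. Their levels were near 3 to 4 CPM, 23 to 166 counts in a library, and they varied more between mice than Ctnnb1 did, with coefficients of variation from 16.1% for Tcf7l1 to 20.7% for Tcf7l2.

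Lef1 (ENSMUSG00000027985, chr3:131110471-131224356, plus strand) ran from 2.86 to 4.18 CPM in CD mice with a median of 3.51. In FD females it was 4.65, 4.04 and 3.85 CPM, and in FD males 3.09 and 5.09 CPM. FD male 2 was the highest of all mice and CD female 3 the lowest, and the other mice of both diets were interspersed. The means were 3.56 ± 0.496 CPM (SD, n = 6) and 4.14 ± 0.767 CPM (SD, n = 5), a log2 fold change of 0.20 with an SE of 0.13 (edgeR, adjusted p = 1). Its 95% interval went from -0.083 to 0.49, or from -5.58% to 40.1% on a linear scale, and the exact permutation test of the gene alone gave a two-sided unadjusted p = 0.182. A gene on the opposite strand, Gm43352, covers 13.8% of the exon bases of Lef1.

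Markers of meningeal fibroblasts, the collagen-producing cells of the membranes around the brain, are given beside Lef1 because the same 2 mice held the extremes of both. The 8 markers of that list summed to 89.7 to 220.4 CPM in CD and 119.7 to 359.9 CPM in FD mice, and each averaged 1 CPM or more. The log2 fold change was above 0 for 8 of 8, and for 48.2% of all genes. It ran from 0.0014 for Lum to 0.94 for Fmod, which varied widely in FD mice, 12.4 ± 11.8 CPM (SD, n = 5). Only 1, Ogn, had an unadjusted p under 0.05, against 1.93% of all genes that were higher at that p. FD male 2, the mouse with the highest Lef1, had the highest sum and CD female 3, with the lowest Lef1, the lowest. The mice between them did not all follow this order, since FD female 3 had the second lowest sum with 3.85 CPM of Lef1, and CD male 2 had a sum of 154.7 CPM with the third highest Lef1, 4.18 CPM. Endothelial markers, whose sum was also highest in FD male 2, ran from 157.1 to 218 CPM in CD and 168.3 to 228.9 CPM in FD mice. When 1 mouse at a time was left out, the log2 fold change of Lef1 ran from 0.13 (without FD male 2) to 0.29 (without FD male 1). With FD male 2 and CD female 3 both left out, a choice made after seeing the data, it was 0.086 with an SE of 0.13 (edgeR, adjusted p = 1), and leaving out the highest FD and the lowest CD value lowers this difference whatever else those mice hold. The part of these cells in the values of Lef1 was not tested.

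**Figure D3:**
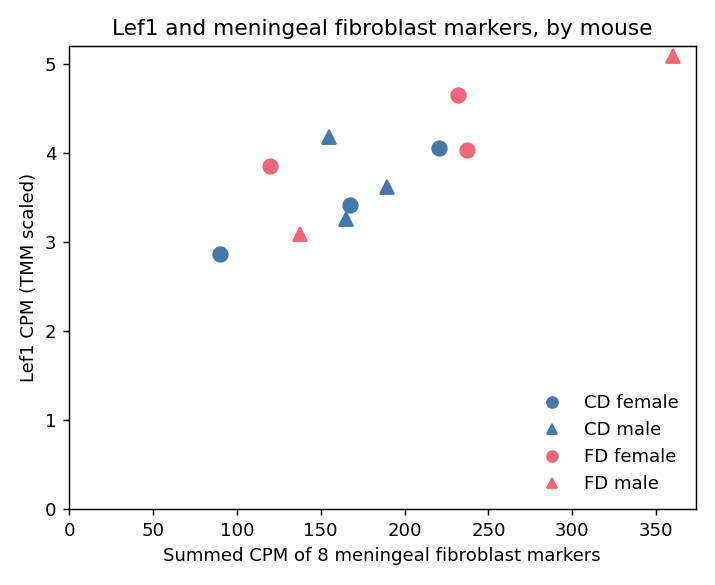
Lef1 (CPM) against the summed CPM of 8 meningeal fibroblast markers in each of the 11 mice. CD female 3 has the lowest values on both axes (2.86 and 89.7 CPM) and FD male 2 the highest (5.09 and 359.9 CPM).

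Tcf7 (ENSMUSG00000000782, chr11:52252371-52283014, minus strand) had 2.45 to 3.87 CPM in CD mice with a median of 2.71. In FD females it had 3.89, 3.12 and 2.65 CPM, and in FD males 2.52 and 2.55 CPM. One mouse in each group, CD male 2 and FD female 1, stood at nearly 4 CPM and the others lower. FD over CD gave a log2 fold change of 0.048 with an SE of 0.15 and a 95% interval from -0.27 to 0.37 (edgeR, adjusted p = 1).

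Tcf7l1 (ENSMUSG00000055799, chr6:72626378-72789254, minus strand) had 1.96 to 3.93 CPM in CD mice with a median of 3.05. The FD females had 3.02, 2.82 and 3.44 CPM and the FD males 2.999 and 2.97 CPM. The extremes of this gene were both CD females, number 2 at the bottom and number 3 at the top, and the FD mice lay close together between them. On the log2 scale the difference was 0.0007 with an SE of 0.14 and a 95% interval from -0.29 to 0.29 (edgeR, adjusted p = 1).

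Tcf7l2 (ENSMUSG00000024985, chr19:55741820-55933654, plus strand), the best known TCF factor of the thalamus, had 2.99 to 4.46 CPM in CD mice with a median of 3.51. The FD females had 4.77, 1.98 and 3.77 CPM and the FD males 3.67 and 4.24 CPM. The lowest and the highest of all 11 mice were both FD females, numbers 2 and 1. FD over CD gave a log2 fold change of 0.052 with an SE of 0.16 and a 95% interval from -0.29 to 0.40 (edgeR, adjusted p = 1). Markers of thalamus and habenula, regions that lie next to the hippocampus, summed to 95.2 to 114.2 CPM in CD and 97.1 to 112.7 CPM in FD mice. For Tcf7, Tcf7l1 and Tcf7l2, differences smaller than the bounds of these intervals were not detectable at this depth and with these numbers of mice.

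Of the 5 target genes, 2 had an estimate above 0 and 3 below 0 in FD over CD mice. Myc and Ccnd1 are growth and cell cycle genes with many inputs besides Wnt, whereas Axin2, Nkd1 and Sp5 are closer to the pathway.

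Myc (ENSMUSG00000022346, chr15:61985391-61990374, plus strand) was at 5.44, 5.93 and 6.23 CPM in the CD males and 5.31, 6.40 and 4.93 CPM in the CD females. In the FD females it was at 5.26, 3.66 and 4.55 CPM, and in the FD males at 5.33 and 3.96 CPM. The FD mice were below the CD median in 5 of 5 cases, but FD female 1 and FD male 1 exceeded the lowest CD mouse, CD female 3. The means were 5.71 ± 0.573 CPM (SD, n = 6) in CD and 4.55 ± 0.753 CPM (SD, n = 5) in FD mice. The log2 fold change was -0.30 with an SE of 0.11 and a 95% interval from -0.54 to -0.058, which is -18.7% on a linear scale with bounds of -31.2% and -3.96%. The adjusted p over all genes was 1 by edgeR, and 1.14% of all genes had a smaller p than Myc. Tested alone over the 462 ways to divide the mice into 6 and 5, the difference in mean log2 CPM was -0.33 (exact permutation test, two-sided, unadjusted p = 0.026, where the smallest possible is 0.00217). The difference had the same sign in males alone (log2 fold change -0.30) and in females alone (-0.26), with an unadjusted p above 0.05 by edgeR in both. The depth behind these values was 48 to 276 counts of Myc per library.

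Ccnd1 (ENSMUSG00000070348, chr7:144929931-144939925, minus strand) was at 33.9, 35.7 and 34.6 CPM in the CD males and 41.4, 33.7 and 38.9 CPM in the CD females. In the FD females it was at 40.4, 40.7 and 42.5 CPM, and in the FD males at 43.2 and 35.4 CPM. The FD mice were above the CD median in 5 of 5 cases, while CD female 1 was higher than FD females 1 and 2 and higher than FD male 2. The means were 36.4 ± 3.11 CPM (SD, n = 6) in CD and 40.4 ± 3.07 CPM (SD, n = 5) in FD mice. This is a log2 fold change of 0.15 with an SE of 0.069 and a 95% interval from 0.0088 to 0.30, or 11.3% higher with bounds of 0.615% and 23% higher. The adjusted p over all genes was 1 by edgeR, and 2.04% of all genes had a smaller p than Ccnd1. Tested alone, the difference in mean log2 CPM was 0.15 (exact permutation test, two-sided, unadjusted p = 0.0649). Males alone gave a log2 fold change of 0.20 (edgeR, unadjusted p = 0.0258) and females alone 0.11 (edgeR, unadjusted p = 0.223). The opposite-strand gene LTO1 covers 23.4% of the exon bases of Ccnd1, so reads there could belong to either gene if strand was not used.

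Axin2 (ENSMUSG00000000142, chr11:108920349-108950783, plus strand) is the target most often taken as the readout of beta-catenin activity. It had 23.1, 25.1 and 22.4 CPM in the CD males and 21.6, 18.7 and 23.2 CPM in the CD females. The FD females had 27.5, 22.5 and 23.6 CPM and the FD males 21.6 and 18.4 CPM. Over both sexes the groups covered almost the same range, with means of 22.3 ± 2.12 CPM (SD, n = 6) and 22.7 ± 3.3 CPM (SD, n = 5). Between the diets the log2 fold change was 0.030 with an SE of 0.091 and a 95% interval from -0.16 to 0.22, that is from -10.7% to 16.7% on a linear scale (edgeR, adjusted p = 1).

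Nkd1 (ENSMUSG00000031661, chr8:88521354-88594884, plus strand) had 8.99, 10.8 and 10 CPM in the CD males and 9.58, 10.5 and 12.9 CPM in the CD females. The FD females had 13.9, 8.76 and 10.6 CPM and the FD males 8.19 and 8.20 CPM. FD female 1 and CD female 3 were the highest and both FD males the lowest of the 11 mice. The means were 10.4 ± 1.34 CPM (SD, n = 6) and 9.93 ± 2.44 CPM (SD, n = 5). FD over CD gave a log2 fold change of -0.037 with an SE of 0.13 and a 95% interval from -0.32 to 0.25 (edgeR, adjusted p = 1).

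Sp5 (ENSMUSG00000075304, chr2:70474923-70477729, plus strand) was near the limit of detection. It had 1, 2 and 2 counts in the CD males, 2, 3 and 3 in the CD females, 0 and 0 in the FD males, and 3, 1 and 2 in the FD females. The total was 13 counts in 6 CD and 6 counts in 5 FD libraries, no library exceeded 3 counts, and no fold is given. A difference was not detectable at this depth (edgeR, adjusted p = 1).

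**Figure D4:**
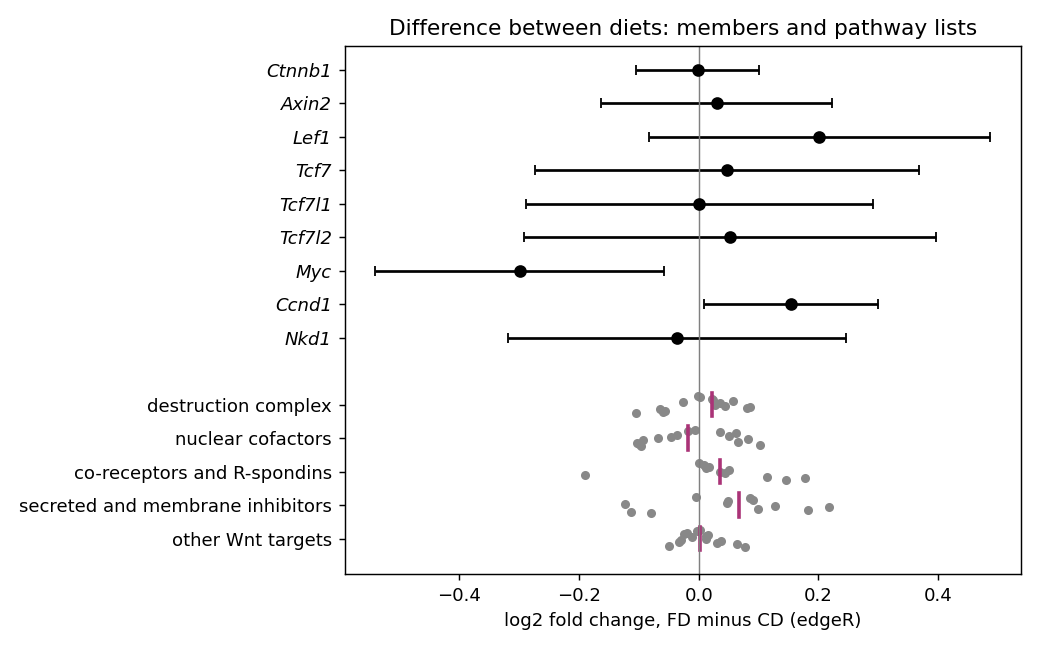
Log2 fold change of FD over CD (edgeR) for 9 genes with 95% intervals (Sp5 is left out), and below them as grey points the genes of 5 pathway lists that averaged 1 CPM or more, with a bar at the median of the plotted genes of each list. The intervals of Myc (-0.54 to -0.058) and Ccnd1 (0.0088 to 0.30) exclude 0 without adjustment, and those of the other 7 genes span it.

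Sex was compared with diet as a covariate. By edgeR, 6.11% of all genes passed the adjusted threshold and 0 of the 10 did, while 2 of the 10 had an unadjusted p under 0.05, both lower in males, against 20.3% of all genes (10.3% lower and 9.94% higher in males). DESeq2 called 0 of the 10 after adjustment and 2 without it. Nkd1 averaged 9.23 ± 1.13 CPM in the 5 males and 11.03 ± 1.97 CPM in the 6 females. Male over female, its log2 fold change was -0.28 with an SE of 0.12 and a 95% interval from -0.52 to -0.031 (edgeR, adjusted p = 0.191). When 1 mouse at a time was left out, this difference had an unadjusted p under 0.05 in 6 of 11 fits, and without FD female 1 it was -0.17. Sp5 had 5 counts in all males and 14 in all females (edgeR, adjusted p = 0.177), again with no more than 3 in a library. The estimate was lower in males for 9 of the 10 genes, Myc being the exception, and 49.1% of all genes were higher in males, with a median log2 fold change of -0.050 over the list and -0.0045 over all genes.

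The diet difference was also compared between the sexes. For this interaction 0% of all genes passed the adjusted threshold by edgeR, so 0 of the 10 could, and 1 of the 10 had an unadjusted p under 0.05, against 1.9% of all genes (1.25% with a negative and 0.651% with a positive term). The term was positive for 3 of the 10 and for 44.9% of all genes. DESeq2 called 0 of the 10 after adjustment and 1 without it, and the gene was Axin2 in both. Its means were 21.2 ± 2.27 CPM (SD, n = 3) in CD and 24.5 ± 2.62 CPM (SD, n = 3) in FD females, and 23.5 ± 1.36 CPM (SD, n = 3) in CD and 20 ± 2.28 CPM (SD, n = 2) in FD males. FD females thus averaged above CD females and both FD males were below all 3 CD males, while the female groups overlapped. Both FD males were also below all 3 CD males for Nkd1, Myc, Tcf7 and the barely detected Sp5. Groups of 2 and 3 mice are easily apart, and the share of all genes with such male groups was not counted. The diet difference in males minus that in females was -0.44 on the log2 scale, with an SE of 0.15 and a 95% interval from -0.76 to -0.12 (edgeR, adjusted p = 1). Without FD male 2, which leaves a single FD male assumed to vary like the other groups, the term was -0.33 and its unadjusted p was no longer under 0.05. Nkd1, the other feedback target, had a term of -0.33 and Tcf7 one of -0.50, neither with an unadjusted p under 0.05 by edgeR.

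**Figure D5:**
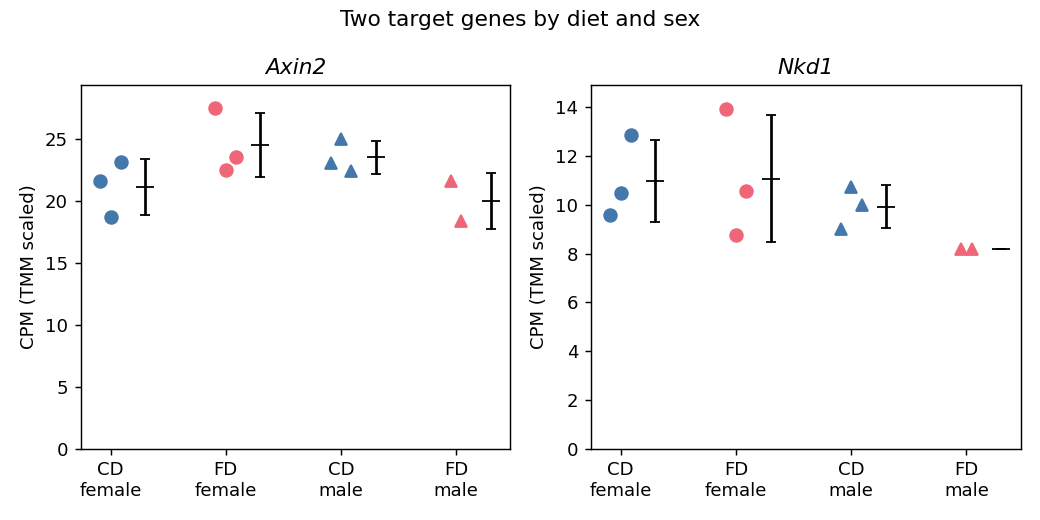
CPM of Axin2 and Nkd1 by diet and sex, 1 point per mouse, with the mean ± SD of each group of 3 mice (2 for FD males) beside the points. Both FD males lie below the 3 CD males for Axin2, at 21.6 and 18.4 against 22.4 to 25.1 CPM, and also for Nkd1. The same holds for Myc, Tcf7 and the barely detected Sp5, which are not drawn here, so it is not particular to these feedback targets. The share of all genes whose male groups were apart in this way was not counted.

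The rest of the pathway was described by 5 lists with 80 further genes, of which 75 were tested. Between FD and CD mice 0 of the 75 passed the adjusted threshold and 0 had an unadjusted p under 0.05 by edgeR, and DESeq2 also gave 0 and 0. The log2 fold change was above 0 for 46 and below 0 for 29, with a median of 0.017, and it was above 0 for 48.2% of all genes.

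In the destruction complex, the machinery that marks beta-catenin for degradation, 9 of 15 genes were above 0 and 6 below, with a median log2 fold change of 0.022. The smallest p of all 75 genes was that of Gsk3a, a kinase that phosphorylates beta-catenin, with 152.4 ± 8.13 CPM in CD and 141.7 ± 11.1 CPM in FD mice and a log2 fold change of -0.10 (edgeR, adjusted p = 1). Dvl1, the Dishevelled protein that relays the signal from the receptor, was at -0.059 and the scaffold gene Axin1 at -0.057 on the log2 scale.

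Among the nuclear cofactors, which join beta-catenin or the TCF proteins on DNA, 6 of 15 were above 0 and 9 below, with a median of -0.018. The Groucho corepressor gene Tle3 and its short relative Aes were at -0.096 and -0.099, and the corepressor gene Ctbp2 was at 0.10 on the log2 scale.

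At the membrane, 11 of the 13 tested genes of co-receptors and R-spondins were above 0 and 2 below, with a median of 0.036. Several of the 11 lay close to 0, such as Rspo2 at 0.0088, Rspo3 at 0.0123 and Ror1 at 0.0165. Lgr5 and Lgr6, receptors for R-spondins, were at 0.18 and 0.15, and the Wnt co-receptor gene Lrp6 was at 0.11 on the log2 scale. Rspo4 was too low to be tested.

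Of the secreted and membrane inhibitors, 11 of the 16 tested were above 0 and 5 below, with a median of 0.088. Dkk3, an abundant member of the Dickkopf family, had 497.8 ± 22.9 CPM in CD and 470.9 ± 15.6 CPM in FD mice, a log2 fold change of -0.080 (edgeR, adjusted p = 1). Frzb, which binds Wnt proteins outside the cell, was at -0.11 on the log2 scale, and Sfrp5 averaged only 0.133 CPM. Dkk1 and Dkk4 were too low to be tested.

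A further 18 known or proposed Wnt targets were listed, and 9 of the 16 tested were above 0 and 7 below, with a median of 0.0073. Prox1, a transcription factor of dentate granule neurons, was at 0.078, Birc5, a gene of dividing cells that averaged 0.625 CPM, at 0.24, and the immediate early gene Jun at -0.050 on the log2 scale. Fgf20 and Mmp7 were too low to be tested.

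The genes whose pattern over the 11 mice was most like that of each gene were sought among 14437 genes that averaged 1 CPM or more, leaving out Sp5, as a description without a test. The points share the libraries and their depth, and with 11 mice many genes are correlated. A Pearson r over 0.5 in size, of either sign, was found for 24.1% of genes with Ctnnb1 and 29% with Nkd1. Nearest to Ctnnb1 were Gskip, whose product binds the kinase GSK3 (r = 0.976, Spearman rho = 0.964), Mrap2 and Eif2ak1. Nearest to Axin2 were Zfp467 (r = 0.925, rho = 0.873), Sfrp2, a secreted Wnt antagonist (r = 0.907, rho = 0.764), and Creb5. Nearest to Lef1 were Ccdc8 (r = 0.925, rho = 0.927), Lyz2, a lysozyme of myeloid cells, and Bgn, a proteoglycan of connective tissue (r = 0.91, rho = 0.864). Tcf7 was most like Uba7, Tpcn1 and Kdm8, Tcf7l1 most like Gm10710, Egln3 and Ttyh1, and Tcf7l2 most like Tmem132c, Calca and 9030612E09Rik. Myc was most like Upf1 (r = 0.892, rho = 0.855), Gm26840 and Jakmip1. Ccnd1 was most like Ppp3cc (r = 0.905, rho = 0.918), Nat8f1 and Gm5069, and Nkd1 most like Tpt1, Nr1h2 and Pacs2. Among the listed genes themselves, the most alike were the 2 feedback targets Axin2 and Nkd1 (r = 0.618 over 11 mice), while Axin2 and Lef1 had an r of 0.027.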

How the data were processed

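Hippocampal RNA of 11 mice was sequenced in single reads of 50 bases. The authors aligned the reads with STAR to GRCm38 and deposited raw counts of uniquely aligned reads per gene for each mouse, naming featureCounts for the counting, and the annotation release and strand setting are not given in the sources used here. The 5 summary lines of each table name no gene. They held 24.4 to 26.9% of the total and were left out. No other columns per sample existed (0 unused). Symbols were found for 36345 identifiers (94.9%).

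The analysis ran in R 4.3.3, with edgeR 4.0.16 for the main test (quasi-likelihood test, TMM, genes with at least 10 counts in total, Benjamini-Hochberg adjustment over all genes, threshold 0.1), and DESeq2 1.42.0 was an alternative. The SE is the size of the log2 fold change divided by the square root of F. Log2 CPM used a prior count of 2. The code was tested on simulated data. Other filters, RLE scaling, sex as covariate, single sexes, a replicate block and leaving out each mouse were tried. Whether replicate numbers pair the mice is not given in the sources used here, and the main test left them unpaired. Correlations of deviations ran from 0.005 to 0.386 for the 5 pairs of the same number. For the other CD and FD mice of the same sex they ran from -0.403 to 0.22. The deviations were taken from the mean of each diet and sex group. They cancel within a group, so these ranges are not independent of each other. Exon lengths are unions over GENCODE transcripts.

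Named were all 10 members, from each pathway list the 3 genes with the smallest p, and for each member the 3 genes of most similar pattern. Other genes named, such as marker genes, belong to the lists. Members and lists were chosen with earlier results of these data known.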

Additional observations from a re-analysis of the deposited data

Results flagged for a closer look

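The diet by sex interaction term of Axin2 was -0.44 on the log2 scale, with an unadjusted p under 0.05 but an adjusted p of 1 by edgeR. It was 1 of the 10 genes, against 1.9% of all genes, and without FD male 2 the term was -0.33 and its unadjusted p above 0.05.

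CD female 3 stood apart from the other CD mice in the summed markers of oligodendrocyte precursors and newly formed oligodendrocytes, with 184.6 CPM against 200.6 to 209.3 CPM, a gap of 0.648 of the whole range. This was 1 of 38 groups examined in this way, and chance marks about 1 in 20. The same mouse had the highest sums of mature oligodendrocyte markers, 6238 CPM, and of choroid plexus markers, 94.6 CPM, and the lowest sum of meningeal markers. It also had the lowest sums of the destruction complex (2072 CPM), the co-receptors and R-spondins (211.8 CPM) and the other Wnt targets (722.7 CPM). Its sum of the secreted and membrane inhibitors was the highest, 664.4 CPM.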

How the results depend on the processing

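Between FD and CD mice 0 of the 10 genes passed the adjusted threshold under all 21 alternatives. Of all genes, 14 passed, against 8 with filterByExpr, 1 with at least 10 counts in every mouse, 25 with the replicate block, 2 in males only, 1 in females only, 5 with CD female 3 and FD male 2 left out together (chosen after seeing the data), and 3 to 12 when 1 mouse was left out. The number of the 10 at an unadjusted p under 0.05 was 1 with the replicate block, 0 in females only, and 1 to 2 without 1 mouse. In males only it was 2, but these were Ccnd1 and Axin2, with Axin2 lower in FD males (edgeR, unadjusted p = 0.0486). Between the sexes, 1 gene, Nkd1, passed when no filter was used (log2 fold change -0.28, adjusted p = 0.0474), and the number at an unadjusted p under 0.05 was 1 without diet as covariate, 1 with filterByExpr, 1 with at least 10 counts in every mouse, and 0 to 2 without 1 mouse. For the interaction it was 0 to 1 without 1 mouse. By the exact test of single genes, 1 gene had p under 0.05, 2 with RLE scaling, where Ccnd1 came to 0.16 (p = 0.0498), and 1 to 2 without 1 mouse. Myc kept its sign throughout, from -0.36 to -0.24 without 1 mouse (unadjusted p under 0.05 by edgeR in 10 of 11 such fits, the exception being without FD female 2, and not under it with the block, in males only or in females only). Ccnd1 also kept its sign, from 0.13 to 0.20 without 1 mouse (unadjusted p under 0.05 in 6 of 11). Lef1 ran from 0.13 to 0.29, under 0.05 in 1 of 11, without FD male 1. The Axin2 interaction ran from -0.57 to -0.33 without 1 mouse (unadjusted p under 0.05 in 10 of 11, not without FD male 2), and the sex difference of Nkd1 from -0.36 to -0.17 (6 of 11).

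Estimates near 0 changed sign with the setting. Ctnnb1 was at 0.0051 with RLE, 0.0023 with no filter, 0.012 with filterByExpr, 0.0058 with at least 10 counts in every mouse, 0.0049 with DESeq2 and 0.032 in males only. Tcf7l1 was at -0.0079 with sex as covariate, -0.029 with the replicate block and -0.0007 in males only. In males only Axin2 was at -0.20 and Tcf7 at -0.23, in females only Tcf7l2 was at -0.018 and Nkd1 at 0.055, and Nkd1 was at 0.087 with both mice left out. Without 1 mouse the ranges that crossed 0 were -0.018 to 0.025 for Ctnnb1, -0.044 to 0.097 for Axin2, -0.095 to 0.15 for Tcf7, -0.069 to 0.067 for Tcf7l1, -0.064 to 0.19 for Tcf7l2 and -0.20 to 0.030 for Nkd1. The causes were not tested. The replicate block changed no other call. Low counts limit the 4 TCF/LEF genes and above all Sp5, and exons overlapped by opposite-strand genes limit Ccnd1, Ctnnb1 and Lef1.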

Other observations

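Markers of other cell types were examined for the tissue as a whole. All 8 markers of choroid plexus, the tissue that makes cerebrospinal fluid, had a log2 fold change below 0, while 48.2% of all genes were above 0. Of the 8, 2 had an unadjusted p under 0.05, against 0.661% of all genes that were lower at that p. These were Ttr and Kcne2, and Kcne2 averaged only 0.159 CPM, a level that 3 counts reach in some libraries. In all, 3 of the 8 averaged under 1 CPM. Their sum ran from 32.4 to 47.1 CPM in FD mice and from 38.5 to 65.8 CPM in 5 of the CD mice, with CD female 3 alone at 94.6 CPM. Kl made up a large part of it, with 23.8 ± 0.769 CPM in CD and 23.2 ± 1.41 CPM in FD mice, and hardly varied. The paper describes a qPCR check of the RNA for the choroid plexus transcripts Otx2 and Prlr before sequencing. Estimates near 0 were among the 8, with Prlr at -0.0062, Kl at -0.036 and Otx2 at -0.093 on the log2 scale. Ttr, the transthyretin gene that marks this tissue, had 21.9 ± 18.6 CPM (SD, n = 6) in CD and 9.07 ± 4.26 CPM (SD, n = 5) in FD mice (edgeR, adjusted p = 1).

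Glial lists overlapped between the diets. Mature oligodendrocyte markers, the genes of myelin, summed to 3885 to 6238 CPM in CD and 3979 to 5160 CPM in FD mice, and markers of precursors and newly formed oligodendrocytes to 184.6 to 209.3 CPM and 197.1 to 220.4 CPM, with Itpr2 at an unadjusted p under 0.05 (log2 fold change 0.17, edgeR, adjusted p = 1). Astrocyte markers summed to 1550 to 1742 CPM in CD and 1624 to 1671 CPM in FD mice, and microglia markers to 281.7 to 326.6 CPM and 294.9 to 322 CPM. With CD female 3 and FD male 2 left out together, a choice made after seeing the data, the log2 fold change was -0.29 for Myc with an SE of 0.12 and 0.22 for Ccnd1 with an SE of 0.069 (edgeR, adjusted p = 1 for both).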
